A study of Homo sapiens with 21 samples.

Results

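The metallothionein genes MT1E, MT1F, MT1G, MT1X and MT2A were taken by gene name from the FPKM table (fragments per kilobase of gene length, scaled to library size) of an RNA-seq experiment, 5 of the 58735 genes listed. All 5 had a mean of at least 0.5 FPKM over the 21 libraries and entered the tests, which covered 14686 genes. MT1G passed that filter through a single library, so tests on it describe that library.

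The cells were MDA-MB-453, a human breast cancer cell line with a luminal profile, labelled wild type. The experiment asked whether calcium and cadmium act through the orphan nuclear receptor ESRRB, using diethylstilbestrol (DES) as its antagonist and GSK4716 as its agonist. There were 7 groups of 3 libraries: no treatment (control), calcium at 10 mM, cadmium at 10 µM, GSK4716 at 5 µM and DES at 10 µM, each for 24 h, and calcium or cadmium at these doses for 24 h after 3 h of DES at 10 µM. The labels do not say whether DES stayed on while the metal was given. DES exposure may therefore differ between DES alone, labelled 24 h, and DES followed by a metal. In comparisons of these groups metal and DES timing cannot be told apart. Before treatment all cells were moved to a phenol red-free medium with charcoal-stripped serum. Calcium and GSK4716 were then given without serum, and cadmium in serum diluted further. The labels do not give the serum of the control and DES libraries one by one. Metal and medium therefore cannot be told apart in comparisons with the control or with DES alone, or in tests that combine these. DES and GSK4716 were dissolved in ethanol. The labels do not say whether replicates were separate cultures, so p-values measure the spread between these libraries, which may be technical.

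Metallothioneins are small cysteine-rich proteins that hold zinc and copper in thiolate clusters and also bind cadmium, which they keep away from other proteins. Free zinc activates the transcription factor MTF1, which binds metal response elements in the promoters of these genes, and cadmium is known to raise free zinc by displacing it from metallothionein. The zinc exporter SLC30A1 is another known target of MTF1. MT2A is the main isoform in most human tissues, and the MT1 genes are its close relatives.

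All 5 genes lie within a cluster on chromosome 16 (GRCh38.p14), MT2A at 56608199 to 56609497, MT1E at 56625475 to 56627112, MT1F at 56657694 to 56660698, MT1G at 56666731 to 56668065 on the minus strand, and MT1X at 56682424 to 56684196. The other 4 are on the plus strand. Each principal transcript in GENCODE has 3 exons and a coding sequence of 186 bases with its stop codon, for 61 amino acids. Coding sequences of pairs of these genes were 88.7% (MT1F and MT1X) to 95.2% (MT2A and MT1G) identical over their global alignment. Of the stretches of 50 bases in each principal transcript, 5.34% in MT1E, 6.12% in MT1F, 10.2% in MT2A, 18.0% in MT1X and 20.2% in MT1G occurred in another metallothionein gene or pseudogene, and of stretches of 100 bases 0% did. Reads were paired and 150 bases long, so a few fragments within the shared stretches could have been assigned to the wrong gene. MT1X also overlaps AC026461.1 on the same strand. The table divides by gene lengths from 750 bases (MT1G) to 1889 bases (MT1F), longer than the principal transcripts of 401 to 704 bases, which lowers the FPKM of the genes with the longer annotated length.

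Promoters are printed to show where letters of the metal response element core occur in the members the RefSeq promoter table holds, MT2A and MT1X, beside MT1B, a relative that moved with cadmium, and MT1H, a relative that was near silent in most libraries. The 250 bases before the RefSeq start are given 5′ to 3′ on GRCh38.p14, plus strand, with matches to TGCACNC or TGCGCNC on either strand in capitals.
MT2A, chr16:56608334-56608583: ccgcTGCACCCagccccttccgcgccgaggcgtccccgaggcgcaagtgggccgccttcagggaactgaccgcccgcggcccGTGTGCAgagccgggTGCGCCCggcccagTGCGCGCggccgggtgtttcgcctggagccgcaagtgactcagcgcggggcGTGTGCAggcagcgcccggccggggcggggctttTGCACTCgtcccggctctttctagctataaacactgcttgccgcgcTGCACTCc
MT1X, chr16:56682220-56682469: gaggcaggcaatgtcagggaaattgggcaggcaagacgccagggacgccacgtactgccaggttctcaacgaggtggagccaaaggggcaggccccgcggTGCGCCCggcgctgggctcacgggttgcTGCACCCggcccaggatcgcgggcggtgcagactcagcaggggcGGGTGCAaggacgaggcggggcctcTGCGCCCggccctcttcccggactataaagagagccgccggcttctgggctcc
MT1B, chr16:56651636-56651885: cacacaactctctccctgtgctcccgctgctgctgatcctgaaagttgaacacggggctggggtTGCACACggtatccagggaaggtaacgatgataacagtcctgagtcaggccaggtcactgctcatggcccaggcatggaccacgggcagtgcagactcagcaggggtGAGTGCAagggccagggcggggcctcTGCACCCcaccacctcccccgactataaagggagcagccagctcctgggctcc
MT1H, chr16:56669564-56669813: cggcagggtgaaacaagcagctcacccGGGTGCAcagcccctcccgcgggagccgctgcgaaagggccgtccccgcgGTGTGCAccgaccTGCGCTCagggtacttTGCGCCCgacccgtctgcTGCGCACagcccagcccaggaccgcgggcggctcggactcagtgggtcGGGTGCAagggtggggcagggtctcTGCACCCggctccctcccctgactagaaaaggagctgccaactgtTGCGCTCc

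The MT2A window held 7 matches, MT1X 4, MT1B 3 and MT1H 8, none overlapping another. Of 35116 promoters in the table, 24.8% held at least 1 match, 0.0313% as many as MT2A, 0.370% as many as MT1X, 1.58% as many as MT1B and 0.0171% as many as MT1H. In MT2A, MT1X, MT1B and MT1H a match ended 47 or 48 bases before the start. MT4, the other metallothionein gene in the promoter table, held 3 matches, the last of which ended 84 bases before the start. The estrogen-related receptor motif TNAAGGTCA had 0 matches in these windows and was found in 0.854% of all promoters. The RefSeq start of MT2A lies 385 bases downstream of the gene start in the expression table and that of MT1X 46 bases, so the expression table counts the whole printed window of MT2A and the last 46 bases of that of MT1X as gene body. A match is a run of letters and not a bound site.

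Library depth was 14435925 to 28424805 fragments on genes, and every FPKM value came out as a whole number of fragments within a tolerance of 0.1. The library size behind the FPKM was 0.693 (DES with cadmium, replicate 1) to 1.15 (control, replicate 2) times the fragments on genes, so FPKM values of that DES with cadmium library are raised relative to a scaling by fragments. The 8 luminal markers fixed for this cell line were at 1 FPKM or more in every library, and the 3 leukocyte markers and 2 of the 3 basal markers were under 1 FPKM in every library. Of 3 fibroblast markers COL1A1 was at 1 FPKM or more throughout and the other 2 were under 1 FPKM. DES with cadmium replicate 2 was the lowest of its group in MT2A, MT1E, MT1F and MT1X, and log2 fold changes and ratios of that group are given below without it.

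Arithmetic group means of FPKM followed 1 order in 4 of the 5 genes, and the plot of FPKM by library shows them. For MT2A the group means were 59.6 ± 34.4 FPKM in control (SD, n = 3 in each group), 75.9 ± 27.0 with calcium, 96.7 ± 18.8 with GSK4716, 475 ± 275 with DES, 689.6 ± 393 with DES and calcium, 2793 ± 1131 with cadmium and 5836 ± 4179 with DES and cadmium. The same order of arithmetic means held for MT1E, MT1F and MT1X, but its last step rests on DES with cadmium replicate 1, whose FPKM are raised. The log2 fold change of DES with cadmium against cadmium was -0.40 for MT1E, and without that library it was -0.58 for MT1F and -0.42 for MT1X. Between neighbours in this order, the libraries of control, calcium and GSK4716 overlapped for MT2A, MT1E and MT1X, those of DES and of DES with calcium overlapped, and those of cadmium and of DES with cadmium overlapped. DES libraries lay above all GSK4716 libraries and cadmium libraries above all libraries of DES with calcium for MT2A, MT1E, MT1F and MT1X. For MT1F the GSK4716 libraries (3.74 to 4.42 FPKM) also lay just above the calcium libraries (2.28 to 3.63 FPKM).

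**Figure D1:**
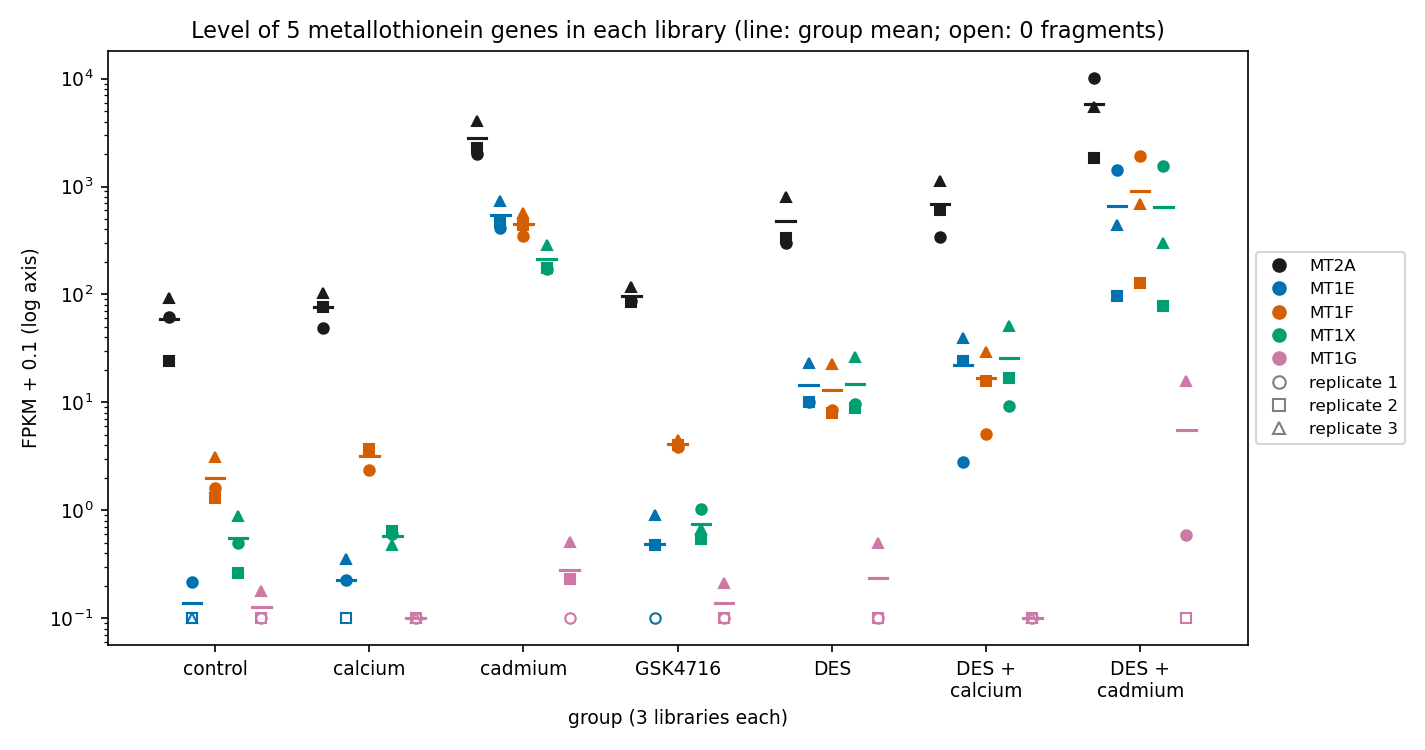
FPKM + 0.1 (log axis) of MT2A, MT1E, MT1F, MT1X and MT1G in each of the 3 libraries of 7 groups, with symbols for the replicate number and a line at the group mean. The cadmium and DES with cadmium groups are highest for the 4 leading genes, the DES groups are intermediate, and MT1G rises above 1 FPKM in 1 library of DES with cadmium (15.8 FPKM).

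In untreated cells MT2A carried nearly all of the metallothionein signal. MT2A was at 62.0, 24.1 and 92.7 FPKM in control replicates 1, 2 and 3, between 94.6% and 96.8% of the summed FPKM of the 5 genes. MT1F, at 1.52, 1.20 and 3.01 FPKM, came next. MT1X was at 0.401, 0.160 and 0.785 FPKM, from 23, 6 and 23 fragments. MT1E had 4 fragments in replicate 1 and 0 in the other two, and MT1G had 1 fragment in replicate 3 and 0 in the others. Replicate 2 was the lowest of the control libraries for MT2A, MT1F and MT1X and replicate 3 the highest. In bulk RNA a larger share of cells with the transcript and more transcript per cell cannot be told apart.

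Cadmium went with higher MT2A, MT1E, MT1F and MT1X than in control, by a factor of 51.3 (MT2A) and more on the log2(FPKM + 0.1) scale. The 5 genes together held 0.00387% to 0.0138% of fragments in control libraries and 0.450% to 0.769% with cadmium. MT2A reached 2001, 2288 and 4088 FPKM in cadmium replicates 1, 2 and 3. MT1E was at 414, 466 and 739.7 FPKM. MT1F was at 352, 437 and 565 FPKM, and MT1X at 172, 175 and 289 FPKM. The cadmium and control ranges of these 4 genes did not meet, and replicate 3 was the highest of the cadmium libraries for each.

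Of the 5 genes, 4 were called higher with cadmium and 0 lower (limma on log2(FPKM + 0.1), Benjamini-Hochberg adjusted p under 0.05 over all genes tested), against 0.129% of all genes called higher. All 3 cadmium libraries lay above all control libraries for 4 of the 5, against 17.7% of all genes. The log2 fold change was 5.68 for MT2A (SE 0.55, adjusted p = 0.0384), 7.88 for MT1F (SE 0.36, adjusted p = 0.00289), 8.72 for MT1X (SE 0.47, adjusted p = 0.00557) and 11.98 for MT1E (SE 0.38, adjusted p = 0.000675). The value for MT1E starts from 4 fragments in the whole control group and depends on the pseudocount, falling to 8.98 with a pseudocount of 1 FPKM. MT1E passed the filter only through the DES and cadmium groups, where it is high. Its means were 0.0392 FPKM in control, 0.127 with calcium and 0.391 with GSK4716. Its calls with cadmium, with DES and for the interaction below therefore describe a gene selected for that level. MT1X was at 0.449 FPKM in control, 0.477 with calcium and 0.646 with GSK4716. MT1G, a minor isoform here, had 0, 2 and 5 fragments with cadmium and was not called. The median log2 fold change of the 5 genes was 7.88 and that of all genes tested 0.04.

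Whether a gene passed depended on which libraries were in the fit, while the log2 fold changes stayed large. Without cadmium replicate 2, only MT1E of the 5 was called, with adjusted p = 0.145 for MT2A, 0.0790 for MT1F and 0.0919 for MT1X, while their log2 fold changes stayed at 5.79, 7.89 and 8.84. MT2A also missed the threshold without control replicate 1, 2 or 3 or cadmium replicate 3. Its log2 fold change stayed between 5.13 and 6.10 with 1 library left out. Its adjusted p ran from 6.5e-05 to 0.169 over all alternatives, by limma or limma-voom. The fit of all 7 groups and limma-voom each called 4 of the 5 genes.

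DES alone also went with higher MT2A, MT1E, MT1F and MT1X, at levels well under those with cadmium. MT2A was at 297, 336 and 792 FPKM in DES replicates 1, 2 and 3. MT1E was at 10.0, 9.90 and 23.0 FPKM, MT1F at 8.42, 7.94 and 22.4 FPKM and MT1X at 9.52, 8.73 and 26.1 FPKM. Replicate 3 was the highest of the group for each gene, and for each gene all DES libraries lay above all control libraries.

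With DES, 4 of the 5 genes were called higher and 0 lower, against 16.7% of all genes called higher, and DES libraries lay above all control libraries for 4 of 5, against 25.9% of all genes. MT2A rose by 3.05 on the log2 scale (SE 0.56, adjusted p = 0.00912 by limma), MT1F by 2.62 (SE 0.48, adjusted p = 0.00899), MT1X by 4.75 (SE 0.57, adjusted p = 0.00228) and MT1E by 6.68 (SE 0.47, adjusted p = 0.00041). MT1G had 0, 0 and 5 fragments and was not called. Without the filter on low values, which adds the silent genes to the adjustment, MT2A (adjusted p = 0.104) and MT1F (adjusted p = 0.0951) missed the threshold. Over all alternatives the adjusted p of MT2A ran from 0.00139 to 0.104 and that of MT1F from 0.00311 to 0.0951.

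None of the 5 genes was called with calcium or with GSK4716. With calcium MT2A was at 48.9, 75.8 and 103 FPKM and MT1F at 2.28, 3.63 and 3.45 FPKM in replicates 1, 2 and 3, both overlapping the control. Calcium changed 0 of the 5 by limma (0 at an unadjusted p under 0.05, 0 by limma-voom), against 7.12% of all genes called in either direction, with log2 fold changes of 0.49 for MT2A (95% interval -0.82 to 1.79) and 0.75 for MT1F (95% interval -0.17 to 1.68). With GSK4716 MT2A was at 86.3, 85.4 and 118 FPKM and MT1F at 3.74, 3.97 and 4.42 FPKM. MT1F in these libraries lay above all control libraries by a narrow margin, with a log2 fold change of 1.14 (95% interval 0.33 to 1.95, unadjusted p = 0.0138, adjusted p = 0.204 by limma). GSK4716 gave 0 calls among the 5 (1 at an unadjusted p under 0.05, 0 by limma-voom) and called 0% of all genes. MT1E, near 0 in control, had 0, 7 and 20 fragments with GSK4716 and 3, 0 and 6 with calcium.

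The libraries of calcium after DES overlapped those of DES alone for all 4 leading genes. MT2A was at 342, 610.3 and 1117 FPKM in replicates 1, 2 and 3, MT1E at 2.69, 23.9 and 39.6 FPKM, MT1F at 5.02, 15.5 and 29.2 FPKM and MT1X at 9.24, 16.8 and 51.0 FPKM. Replicate 1 was the lowest and replicate 3 the highest for each gene, and the range for MT1E took in all DES libraries. Within pairs of the same replicate number MT2A was higher with calcium in 3 of 3 pairs, and the fit with a replicate block gave adjusted p = 0.340 (0.340 to 0.993 over the alternatives, by limma). The test called 0 of the 5 genes (0 at an unadjusted p under 0.05, 0 by limma-voom), against 0.136% of all genes, with log2 fold changes of 0.52 for MT2A (95% interval -0.83 to 1.87) and 0.62 for MT1X (95% interval -1.09 to 2.33). The test of whether calcium acted differently with DES than without called 0 of the 5 (0 at an unadjusted p under 0.05, 0 by limma-voom), against 3.63% of all genes.

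The libraries of cadmium after DES were uneven in their metallothionein levels. MT2A was at 10176, 1839.7 and 5493 FPKM in replicates 1, 2 and 3 of DES with cadmium. MT1E was at 1433, 97.2 and 444 FPKM. MT1F was at 1922, 127 and 691 FPKM, and MT1X at 1551, 78.4 and 302 FPKM. Replicate 1 was the highest and replicate 2 the lowest for each of these genes, and the span between them was wider for the MT1 genes than for MT2A. The 5 genes together took 1.46%, 0.276% and 0.882% of fragments in the 3 libraries.

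Set against DES alone, all 3 libraries of DES with cadmium lay above all DES libraries for 4 of the 5 genes, against 5.38% of all genes. The log2 fold changes were 3.45 for MT2A (SE 0.76, adjusted p = 0.181 by limma), 4.90 for MT1E (SE 0.95, adjusted p = 0.135), 5.58 for MT1F (SE 0.98, adjusted p = 0.113) and 4.67 for MT1X (SE 1.06, adjusted p = 0.187). The test called 0 of the 5 (4 at an unadjusted p under 0.05, 0 by limma-voom), where 0.0272% of all genes were called higher. With one estimate of the spread from all 7 groups 4 of the 5 passed (adjusted p from 0.000614 for MT1F to 0.00868 for MT1E), and without DES with cadmium replicate 2 MT1E (5.91, adjusted p = 0.0379) and MT1F (6.64, adjusted p = 0.0311) passed. With 1 library left out the log2 fold changes ran from 2.89 to 4.12 for MT2A, 3.97 to 5.91 for MT1E, 4.68 to 6.64 for MT1F and 3.56 to 5.71 for MT1X, lowest without replicate 1 and highest without replicate 2 of DES with cadmium for each. Over the alternatives the adjusted p ran from 0.00868 to 0.652 for MT1E and from 0.000614 to 0.579 for MT1F.

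Set against cadmium alone, the libraries of DES with cadmium lay on both sides. Replicate 1 was above and replicate 2 below every cadmium library for MT2A, MT1E, MT1F and MT1X. The log2 fold changes were 0.82 for MT2A (95% interval -1.17 to 2.81), -0.40 for MT1E (95% interval -2.64 to 1.83), 0.32 for MT1F (95% interval -1.93 to 2.57) and 0.69 for MT1X (95% interval -1.73 to 3.12). The test called 0 of the 5 genes (0 at an unadjusted p under 0.05, 0 by limma-voom), against 9.89% of all genes in either direction. The intervals include more than a 4-fold difference in at least 1 direction for each of the 4 genes. Without replicate 2 of DES with cadmium the values were 1.49 for MT2A, 0.61 for MT1E, 1.38 for MT1F and 1.74 for MT1X, and without replicate 1 they were 0.26, -1.33, -0.58 and -0.42.

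Whether cadmium acted differently with DES than without was tested by the interaction term. In this test DES timing may change along with cadmium, as given above. The term is the log2 fold change of cadmium after DES minus that of cadmium alone. It was -7.08 for MT1E (SE 1.09, adjusted p = 0.0190 by limma), -4.05 for MT1X (SE 1.24, adjusted p = 0.121), -2.30 for MT1F (SE 1.12, adjusted p = 0.301) and -2.23 for MT2A (SE 0.95, adjusted p = 0.240). Without DES with cadmium replicate 2 the terms were -6.07 for MT1E, -3.01 for MT1X, -1.24 for MT1F and -1.56 for MT2A, and without replicate 1 that of MT1X was -5.16 and passed (adjusted p = 0.0343 by limma, 0.0343 to 0.432 over all alternatives). The 4 values as fitted were below 0, and 1 of the 5 genes was called (0 by limma-voom), against 1.18% of all genes in either direction. For MT1E the term compares a rise that starts from 4, 0 and 0 fragments in control with one that starts from 239, 195 and 401 fragments with DES, while the levels with cadmium overlapped. The call of MT1E was lost with a pseudocount of 1 FPKM (value -4.18, adjusted p = 0.0557), without a filter on low values, by limma-voom, and without control replicate 2 or 3, cadmium replicate 2 or 3, or DES replicate 2 or 3, with adjusted p from 0.00692 to 0.104 over all alternatives.

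**Figure D2:**
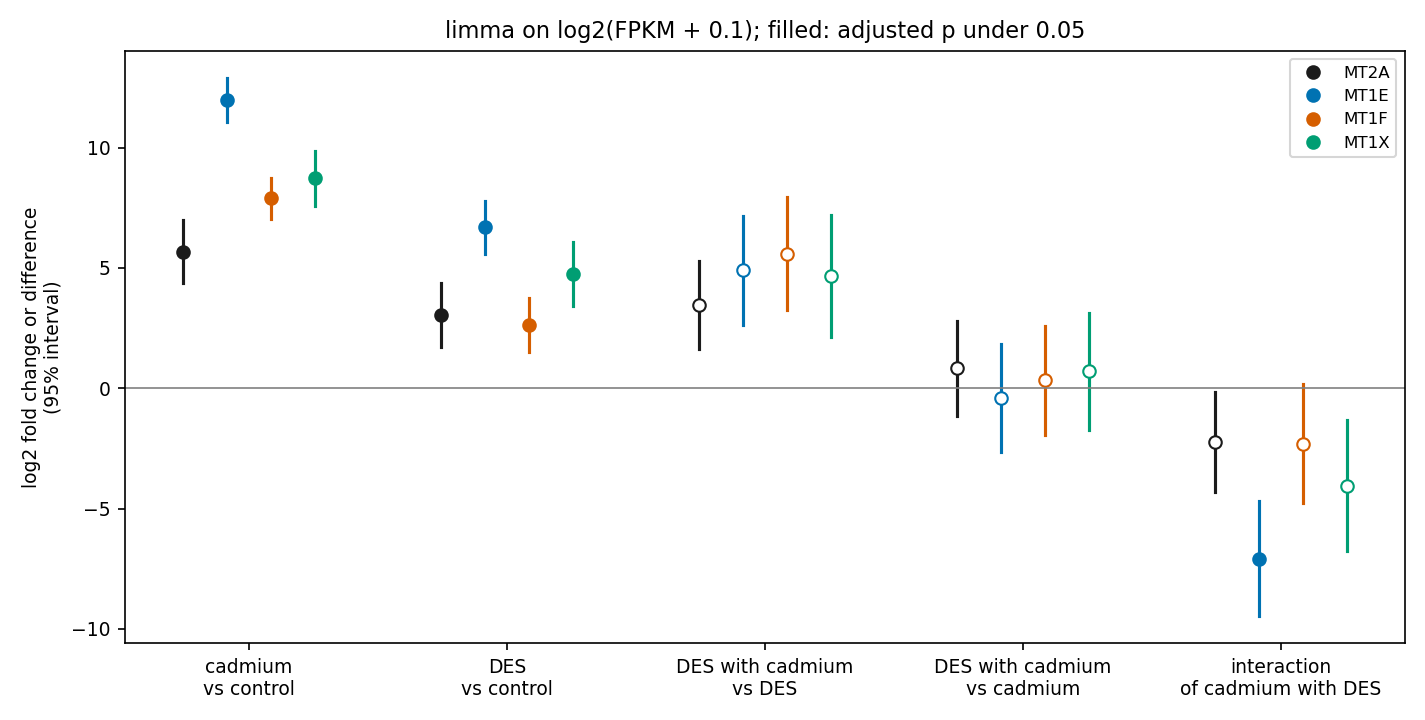
Log2 fold change with its 95% interval for MT2A, MT1E, MT1F and MT1X in 4 comparisons, and the interaction term of cadmium with DES, by limma on log2(FPKM + 0.1). Filled points passed an adjusted p of 0.05, as 4 genes did with cadmium and with DES and MT1E alone did for the interaction. Intervals for DES with cadmium against cadmium all cross 0.

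Ratios between members within 1 library do not depend on how that library was scaled. MT1F stood at 2.46%, 5.00% and 3.25% of the FPKM of MT2A in control replicates 1, 2 and 3, and at 17.6%, 19.1% and 13.8% with cadmium. With DES it was 2.83%, 2.36% and 2.83%, a range that overlapped the control. The cadmium libraries lay above all control libraries, and differences of this ratio from control were not tested. The mean log2 ratio was -4.87 ± 0.52 in control and -5.23 ± 0.15 with DES (SD, n = 3 each). With DES and cadmium MT1F was at 18.9%, 6.91% and 12.6% of MT2A.

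MT1X followed another course. It was at 0.648%, 0.666% and 0.847% of MT2A in control, 3.20%, 2.60% and 3.30% with DES, 8.58%, 7.63% and 7.07% with cadmium, and 15.2%, 4.26% and 5.49% with DES and cadmium. The control, DES and cadmium libraries did not overlap, in this rising order. MT1X was below MT1F in every library of control, calcium, GSK4716, cadmium and DES with cadmium (0.109 to 0.807 of its FPKM) and above it in every library of DES and of DES with calcium (1.08 to 1.84 of its FPKM). This switch, chosen after the values were seen, was not tested.

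MT1E had the highest FPKM of the MT1 genes in every library of cadmium alone and was below MT1F in every library of DES with cadmium. This order is that of FPKM, which divides by the gene lengths of the table, and by fragments MT1F was ahead of MT1E in the cadmium libraries too (12078, 16791 and 17542 against 7923, 9973 and 12789). Changes of a ratio between groups do not depend on these lengths. MT1E stood at 20.7%, 20.4% and 18.1% of MT2A with cadmium, 3.38%, 2.94% and 2.91% with DES, and 14.1%, 5.28% and 8.09% with DES and cadmium. The log2 ratio of MT1E to MT2A was lower with DES and cadmium than with cadmium in 3 of 3 libraries, by 1.22 (mean -3.57 ± 0.71 against -2.35 ± 0.11, SD, n = 3 each; exact permutation test, two-sided p = 0.1, adjusted p = 0.3 over 3 ratios). The smallest p that 3 against 3 libraries allow is 0.1. The ratio of MT1F to MT2A was lower by 0.50 (exact p = 0.3, adjusted p = 0.45) and that of MT1X by 0.13 (exact p = 0.9, adjusted p = 0.9), both with overlapping libraries. Without replicate 2 of DES with cadmium these differences in log2 ratio were -0.88 for MT1E, -0.11 for MT1F and 0.24 for MT1X, and without replicate 1 they were -1.59, -0.84 and -0.68. MT1E was at 1.07 to 1.31 times the FPKM of MT1F with cadmium alone and at 0.643 to 0.765 times with DES and cadmium, and at 2.41 to 2.67 times that of MT1X against 0.924 to 1.47 times, without overlap in either case. The last pair of ratios was set side by side after the values were seen. No ratio was formed for MT1G, which was at 0 fragments in 14 of the 21 libraries.

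**Figure D3:**
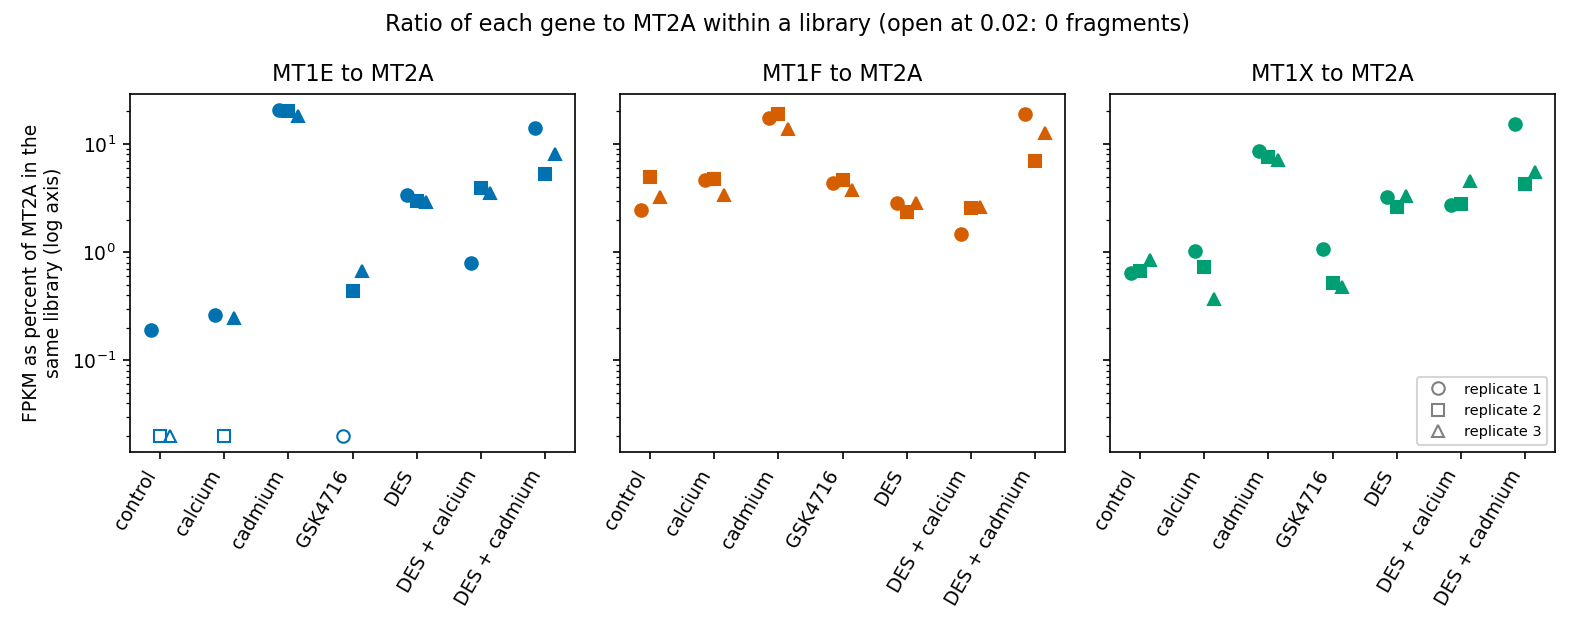
FPKM of MT1E, MT1F and MT1X as a percent of MT2A in the same library (log axis), by group, with symbols for the replicate. MT1F stays at 1.47% to 5.00% outside the cadmium groups and reaches 19.1% with cadmium, MT1X steps up with DES and again with cadmium, and MT1E with DES and cadmium lies below MT1E with cadmium in all 3 libraries. Open symbols mark libraries with 0 fragments of MT1E.

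MT2A held 94.4% to 96.8% of the summed FPKM of the 5 genes in control, calcium and GSK4716 libraries, 91.4% to 92.7% with DES, 95.3%, 91.6% and 90.3% in replicates 1, 2 and 3 of DES with calcium, and 68.0% to 71.9% with cadmium. The first of the DES with calcium libraries lay within the control range. With DES and cadmium the share was 67.5%, 85.9% and 79.1% in replicates 1, 2 and 3. Replicate 2, the library with the lowest metallothionein levels of that group, kept the largest share in MT2A.

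The cluster holds 16 metallothionein genes and pseudogenes, 11 of them outside the 5 members, and most of these stayed near 0. MT1B, a coding gene of the cluster, had 26, 84 and 48 fragments with cadmium and 0 in every control library, at least 20.4-fold higher when the control is set at 3 fragments per library, and it passed the test (adjusted p = 0.0131 by limma). MT1B and MT4 entered the tests only through the cadmium groups, where they are high, so their tests describe genes selected for that level. MT4, known from stratified epithelium and named after its values were seen, had 4, 34 and 22 fragments with cadmium against 0, at least 7.76-fold higher by the same floor, and missed the threshold (adjusted p = 0.0583). With DES and cadmium MT1B had 642, 43 and 961 fragments and MT4 had 91, 1 and 405. Of 12 further metallothionein genes listed, 3 were tested, and MT1B with cadmium was the only one called in the comparisons with control. Of the 12, the pseudogene MT1L was called higher with DES and cadmium than with cadmium (5, 11 and 100 fragments against 0, 1 and 0, adjusted p = 0.0451 by limma), but it had passed the filter only through DES with cadmium, chiefly replicate 3, so this call carries no weight of its own.

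One library held the otherwise silent members of the cluster. DES with cadmium replicate 3 had 215 fragments of MT1G, 135 of MT1M, 115 of MT1H, 100 of MT1L, 85 of the pseudogene MT1JP, 17 of MT1IP and 12 of MT1A. Replicate 1 of that group, in which MT2A, MT1E, MT1F and MT1X all had more fragments (212618 against 129567 for MT2A), had 6 of MT1G, 0 of MT1M, 8 of MT1H and 0 of MT1JP. Among all genes, 4 had at least 50 fragments in DES with cadmium replicate 3 and at most 10% of that number in any other library, and these were MT1G, MT1H, MT1M and MT1JP. No other library had a metallothionein gene by this rule. The plot of fragments across the cluster shows this column beside the others. Cross-assignment of reads between these genes was not tested.

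**Figure D4:**
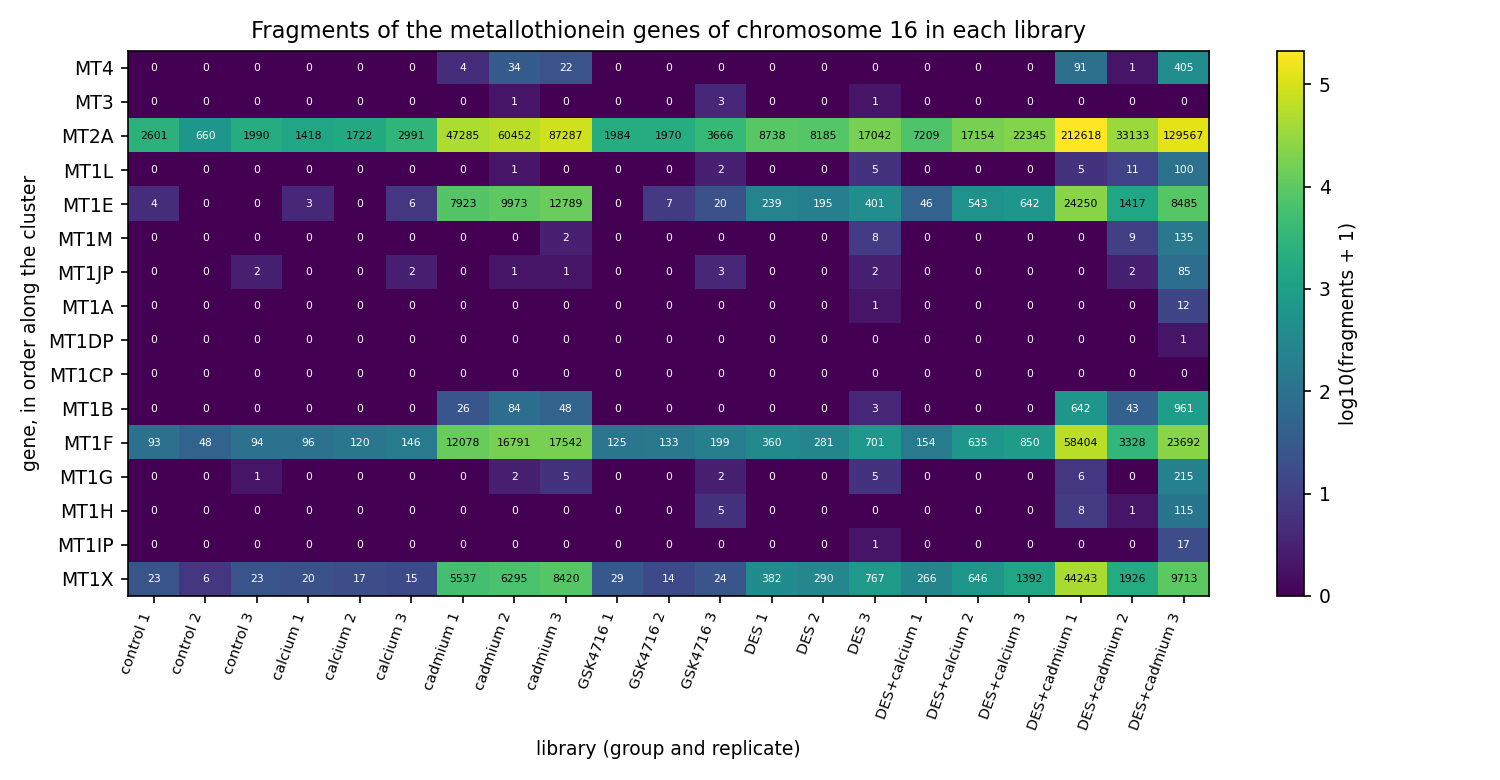
Fragments of the 16 metallothionein genes and pseudogenes of chromosome 16 in each of the 21 libraries, in order along the cluster, with colour on a log10 scale. MT2A, MT1E, MT1F and MT1X are filled in the cadmium and DES groups, MT1B and MT4 in the cadmium groups, and MT1G, MT1H, MT1M, MT1L and MT1JP in the last column, DES with cadmium replicate 3.

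Of 7 genes listed as MTF1 and its reported targets, 6 were tested, with 0 called with cadmium by limma (3 at an unadjusted p under 0.05, median log2 fold change 0.65, all genes 0.04), where 0.15% of all genes were called in either direction. With DES 1 of the 6 was called higher and 1 lower, where 16.7% of all genes were called higher and 12.9% lower. The gene called higher with DES was SLC30A1, the zinc exporter. It was at 6.16, 3.23 and 7.40 FPKM in control, 17.7, 22.6 and 32.4 FPKM with DES, 30.7, 84.0 and 157 FPKM with cadmium and 235, 123 and 373 FPKM with DES and cadmium, with no overlap between control and any of the other three. Its log2 fold change was 2.13 with DES (SE 0.35, adjusted p = 0.00631 by limma), 3.78 with cadmium (SE 0.63, adjusted p = 0.0621) and 3.22 with cadmium after DES against DES (SE 0.45, adjusted p = 0.0591). MTF1 itself, named after its values were seen, fell by 0.74 on the log2 scale with DES (SE 0.19, adjusted p = 0.0267 by limma), from 4.59 ± 0.50 to 2.71 ± 0.34 FPKM (SD, n = 3 each).

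With DES and cadmium against cadmium alone, where 9.89% of all genes were called in either direction, 1 of the 6 was called lower, SLC39A10, a zinc importer, which fell by 2.99 on the log2 scale (adjusted p = 0.0313 by limma). Of 8 copper and zinc handling genes, 7 were tested, with 0 called with cadmium against control by limma (3 at an unadjusted p under 0.05), beside 0.15% of all genes. With DES against control 1 was called higher and 1 lower, beside 29.6% of all genes called in either direction, and both are named after their values were seen. CCS, the copper chaperone of superoxide dismutase, rose by 0.54 (adjusted p = 0.0334 by limma) and ATP7A, a copper exporter, fell by 1.22 (adjusted p = 0.0220). In DES with cadmium against cadmium 2 of the 7 were called, in opposite directions, beside 9.89% of all genes. ATP7A fell by 2.17 (adjusted p = 0.0307) and COX17, the copper chaperone of cytochrome oxidase, rose by 0.91 (adjusted p = 0.0483). Both lists were chosen with earlier results of these data known.

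The genes whose level most resembled the mean log2 level of the 5 metallothioneins over the 21 libraries, among 12237 genes outside the family with a mean of at least 1 FPKM, were SLC30A1 (Pearson r = 0.962), KLKP1 (r = 0.903), ZBTB2 (r = 0.872), GADD45G (r = 0.857) and KYAT1 (r = 0.853). These correlations are taken over 7 groups of 3 libraries and were not computed within groups. KLKP1, a kallikrein pseudogene, passed the mean of 1 FPKM only through the cadmium groups (group means of 5.50 FPKM with cadmium and 20.3 FPKM with DES and cadmium, 0 to 0.487 FPKM in the others), so its likeness carries no weight of its own. It had 18, 72 and 444 fragments with cadmium, 700, 424 and 771 with DES and cadmium, and 0 in the control libraries. Its 3 libraries of DES with cadmium lay closer together than those of the metallothioneins. In the plot of SLC30A1 against the metallothioneins, DES with cadmium replicate 2 lay at 123 FPKM of SLC30A1. Cadmium replicates 1 and 2 were lower (30.7 and 84.0 FPKM), although MT2A was higher in them (2001 and 2288 against 1839.7 FPKM). Cadmium replicate 3 was above DES with cadmium replicate 2 in both genes (157 FPKM of SLC30A1 and 4088 FPKM of MT2A).

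**Figure D5:**
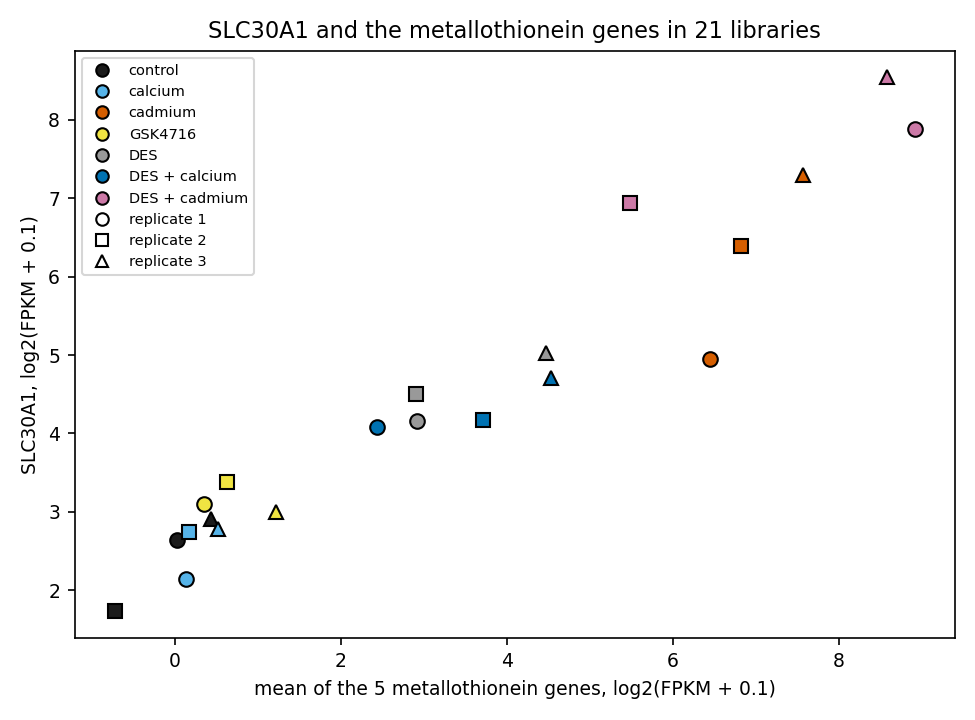
SLC30A1 against the mean of the 5 metallothionein genes, both as log2(FPKM + 0.1), for 21 libraries coloured by group with symbols for the replicate. The control, calcium and GSK4716 libraries sit at the lower left, the DES libraries in the middle and the cadmium libraries at the upper right, with r = 0.962 over the 21 libraries.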

How the data were processed

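The 21 libraries were poly(A)-selected. Per the labels and submitters' processing notes, reads were aligned with HISAT2 2.0.5 to GRCh38.p14 and counted with featureCounts 1.5.0-p3. The FPKM values were computed and deposited by the authors, who tested with DESeq2 and edgeR, not used here. The labels name both directional and non-directional libraries, so strand is not settled. FPKM was converted to whole fragments by gene length. Genes with a mean of at least 0.5 FPKM were tested with limma 3.58.1 in R 4.3.3 on log2(FPKM + 0.1), two-sided, with only the groups compared in each fit, and p-values were adjusted over all 14686 genes. Scripts were tested on simulated data. The members and gene lists were chosen with earlier results of these data known. Named were the 5 members, listed genes passing in a cadmium comparison, and the 5 genes most correlated with the members' mean. Other genes were named after their values were seen. The labels give replicate numbers but do not say that they pair libraries. Replicate numbers were treated as pairs where every pair's deviations correlated above 0.1. This held, at its lowest just above the cutoff, for DES with calcium against DES (0.103 to 0.280). It also held for DES with cadmium against DES (0.121 to 0.472). A single pair elsewhere reached 0.27 (DES with cadmium against cadmium, replicate 1). Blocking changed no call of a member in the comparisons treated as paired. Comparisons with control share its 3 libraries. Promoters came from RefSeq (GRCh38.p14) and transcripts from GENCODE. Alternatives were another pseudocount, filter, scaling, pooled spread, replicate block, limma-voom and leaving out each library.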

Additional observations from a re-analysis of the deposited data

Results flagged for a closer look

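The effect of cadmium on MT1E differed with and without DES by the interaction term, which was -7.08 on the log2 scale (adjusted p = 0.0190 by limma). With a pseudocount of 1 FPKM it was -4.18 (adjusted p = 0.0557), and the call was lost in 9 of 20 alternatives, with adjusted p from 0.00692 to 0.104. The mean rose from 0.0392 to 539.9 FPKM with cadmium alone and from 14.3 to 658 FPKM with cadmium after DES, in 3 of 3 libraries each. The control level rests on 4 fragments in 1 library and 0 in the others.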

How the results depend on the processing

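With cadmium against control the count of members called, 4, became 3 without the filter on low values (MT2A lost at adjusted p = 0.135) and 1 to 4 when a library was left out. With DES against control 4 became 2 without the filter. With cadmium after DES against DES, 0 became 4 with all 7 groups in one fit and 0 to 2 when a library was left out. For the interaction of cadmium with DES, 1 became 0 with a pseudocount of 1, without the filter and by limma-voom, 2 with all 7 groups in one fit, and 0 to 2 when a library was left out. The cause was not tested. In the fit with a replicate block (paired by number), cadmium against control called 3 of the 5 members. MT2A was lost there at adjusted p = 0.118 by limma, and no other call of a member changed. Replicate numbers met the correlation rule for pairing in 2 comparisons only. Values with no call turned sign. MT2A with calcium ran from -0.063 to 0.91, MT1X with DES and calcium against DES from -0.054 to 1.17, and, for DES with cadmium against cadmium, MT1E from -1.33 to 0.61, MT1F from -0.58 to 1.38 and MT1X from -0.42 to 1.74, when a library was left out. MT1F there was -0.018 when scaled by total fragments and -0.019 by limma-voom. The ratio of MT1X to MT2A ran from -0.68 to 0.24 without a library and was 0.028 as a share of the members' sum. Of 388 alternative values of the 26 log2 fold changes, 353 kept direction and call, 20 lost a call, 8 gained one and 7 turned sign. Counts over all genes moved more. Over all alternatives they ran from 7 to 1586 with calcium (1046 as reported), 1 to 1605 with cadmium (22), 0 to 49 with GSK4716 (0), 1715 to 5078 with DES (4340), 0 to 166 with calcium after DES (20), 0 to 603 with cadmium after DES (39), 0 to 5459 for DES with cadmium against cadmium (1453), 15 to 802 for the cadmium interaction (173) and 84 to 830 for the calcium interaction (533). MT1G, MT1H and MT1M were at 0 to 9 fragments in all libraries but DES with cadmium replicate 3, so their values elsewhere are near the floor.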

Other observations

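AC026461.3, a noncoding RNA gene next to MT2A on the opposite strand, was picked out after its values were seen. It had 2, 2 and 2 fragments with cadmium, 46, 19 and 100 with DES and cadmium, and 0 in every library of the other groups. In replicate 2 of DES with cadmium it had 19 fragments at 33133 fragments of MT2A, while the cadmium libraries had 2 each at 47285, 60452 and 87287 fragments of MT2A. Strand is not settled for these libraries, so reads of the gene pair cannot be told apart with certainty.

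The small counts of near-silent cluster genes outside the cadmium groups fell mostly in libraries numbered 3. DES replicate 3 had 8 fragments of MT1M, 5 of MT1L, 5 of MT1G and 3 of MT1B, where replicates 1 and 2 had 0 of each, and GSK4716 replicate 3 had 5 of MT1H. The cause was not tested.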
